A study of Mus musculus with 2 samples.

Results

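The genes described here encode the secreted insulin-like growth factors and the proteins that bind them in mouse colonic stroma. They were the 8 rows of both count matrices whose symbol was Igf1, Igf2 or Igfbp2 to Igfbp7, out of 33696 features, and each symbol had 1 row. In the order Igf1, Igf2, Igfbp2, Igfbp3, Igfbp4, Igfbp5, Igfbp6, Igfbp7 the identifiers were ENSMUSG00000020053, ENSMUSG00000048583, ENSMUSG00000039323, ENSMUSG00000020427, ENSMUSG00000017493, ENSMUSG00000026185, ENSMUSG00000023046 and ENSMUSG00000036256. The study asked how the interleukin-10 receptor of fibroblasts affects the large intestine. Its control library came from Il10ra ff mice, whose Il10ra alleles are floxed, without Cre. Its Cre library came from Il10ra ff; Pdgfra-cre mice, which carry the same floxed alleles and a Cre recombinase driven by Pdgfra, a gene of fibroblasts and related mesenchymal cells. For each genotype the design names 2 mice, 6 months old, and whether they were pooled is not stated. Living whole-colon cells had been sorted for Podoplanin and against CD45, CD31 and EpCAM before single-cell RNA sequencing on the 10x 5′ platform, which captures the first stretch of each transcript and counts molecules by unique molecular identifiers (UMIs).

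IGF1 and IGF2 are small secreted growth factors that act mainly through the IGF1 receptor, a tyrosine kinase on many cells, epithelial cells of the gut among them. In tissue most IGF is held by IGF-binding proteins, which lengthen its life and keep it from the receptor, and proteases that cut the binding proteins set it free. Stromal cells of the gut are a local source of both the ligands and the binding proteins. IGFBP7 binds IGF only weakly and is usually set apart as a related protein.

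The control library held 11380 barcodes with a median of 6505 UMIs and 76570611 UMIs in all, and the Cre library 8627 barcodes with a median of 7332 and 66845139 in all. After filters 10615 and 8319 cells were left, and 115 barcodes, 1.33% of those of the Cre library, occurred in both libraries. Each genotype is 1 library, which allows no test of the genotype, so every interval below is a 95% interval for counting error only, and differences between animals were not measured. Joint clustering without the IGF genes gave 23 clusters, and all but clusters 20 and 21 were named from marker genes. Clusters of 3 fibroblast classes held 1169 control and 460 Cre cells (subepithelial), 3607 and 2371 (lamina propria) and 2953 and 3198 (adventitial or trophocyte). With 1776 and 1507 unclassed fibroblast-like cells they made up the fibroblast-like cells, whose 9 general fibroblast markers summed to 20101 and 20445 CPM, with none at 0. At least 1.5-fold lower in the Cre library were 3 of the 9, and 0 were as much higher. The 9 summed to 19697 and 14169 CPM in lamina propria cells (4 lower) and to 13001 and 10012 CPM in subepithelial cells (2 lower). In adventitial cells the sums were 23731 and 24056 CPM (0 lower). CPM are the UMIs of a gene over all UMIs of the class, scaled to 1e6, and pairs of values are given control first. Il10ra itself had 1 UMI in control and 5 UMIs in Cre fibroblast-like cells, too few to check the deletion, and the 5′ reads need not cover the deleted part. Pdgfra was at 353 and 334 CPM in the same cells.

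The makeup of 2 classes differed between the libraries. In the lamina propria class, cluster 0, led by Sfrp2, Stmn2 and Edil3, held 59.0% of control and 2.57% of Cre cells. Cluster 4, led by Sfrp2, Cxcl13 and Edil3 with the interferon-induced chemokine gene Cxcl9 also among its leading genes, held 0.804% and 63.6%. Cluster 11, led by Cd36, Agt and Nrg1, held 21.6% and 0.717%. In the adventitial class, cluster 1 (Inmt, Cilp) held 38.2% of control and 17.3% of Cre cells, and cluster 5 (Npy1r, Chrdl1, with Ifi207 and Ifit1 among its leading genes) held 2.78% and 44.9%. The subepithelial class was the single cluster 3. The unnamed cluster 20, with 18 control and 19 Cre cells, had the subepithelial markers Bmp3, Sox6 and Bmp7 among its leading genes and was not counted in the class. A class ratio can therefore differ from the ratios within its clusters, and 11 fibroblast-like clusters with at least 50 cells in each library were also compared one by one.

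Promoter sequences from RefSeq were matched for all 8 genes, and those of 3 genes are shown because their levels moved most alike or most unlike across the clusters described below. Igfbp4 and Igfbp7 were higher in the Cre library in 11 of 11 clusters, and Igfbp5 was higher in 2 and lower in 9. All clusters share the same pair of libraries, and such counts were not made for all genes. Each sequence is the 250 bases before the RefSeq start site in GRCm38.p6, 5′ to 3′ on the gene's strand, and capitals mark motif matches. The windows lie at chr11:99040994-99041243 on the plus strand for Igfbp4, at chr5:77408046-77408295 on the minus strand for Igfbp7 and at chr1:72874866-72875115 on the minus strand for Igfbp5.
Igfbp4: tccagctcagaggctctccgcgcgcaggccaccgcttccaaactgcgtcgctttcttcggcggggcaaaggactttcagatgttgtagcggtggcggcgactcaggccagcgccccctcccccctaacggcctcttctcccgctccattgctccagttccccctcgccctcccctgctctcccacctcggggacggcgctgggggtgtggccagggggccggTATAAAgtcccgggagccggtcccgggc
Igfbp7: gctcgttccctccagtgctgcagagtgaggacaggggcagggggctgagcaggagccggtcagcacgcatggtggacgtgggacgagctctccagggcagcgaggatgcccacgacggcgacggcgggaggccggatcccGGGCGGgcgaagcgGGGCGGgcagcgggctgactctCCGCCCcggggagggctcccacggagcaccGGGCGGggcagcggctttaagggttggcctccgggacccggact
Igfbp5: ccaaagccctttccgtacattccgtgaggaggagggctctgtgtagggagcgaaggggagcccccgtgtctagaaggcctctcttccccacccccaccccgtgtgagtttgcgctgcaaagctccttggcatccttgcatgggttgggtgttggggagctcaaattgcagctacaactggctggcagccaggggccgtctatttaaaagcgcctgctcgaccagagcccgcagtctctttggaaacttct
Both strands were searched for 6 motifs. A TATA box (TATAAA) occurred in 12.4% of 32851 RefSeq promoters of the same length, and Igfbp4 had one at position -28, counted from the start site. A GC box (GGGCGG) occurred in 32.7% of them, and Igfbp7 had 4, at -110, -96, -74 and -44. The core of a STAT site (TTCNNNGAA) was found in 7.02% of the promoters and in none of those listed for the 8 genes. The core of an interferon response element (GAAANNGAA) was found in 7.13%, and again in none of those of the 8 genes. Igfbp5 had no match in this window to any of these or to the remaining pair of motifs, an AP-1 site (TGANTCA, in 6.75% of promoters) and the CCAAT box (in 33.8%). The letters in a window show neither binding nor its absence.

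**Figure D1:**
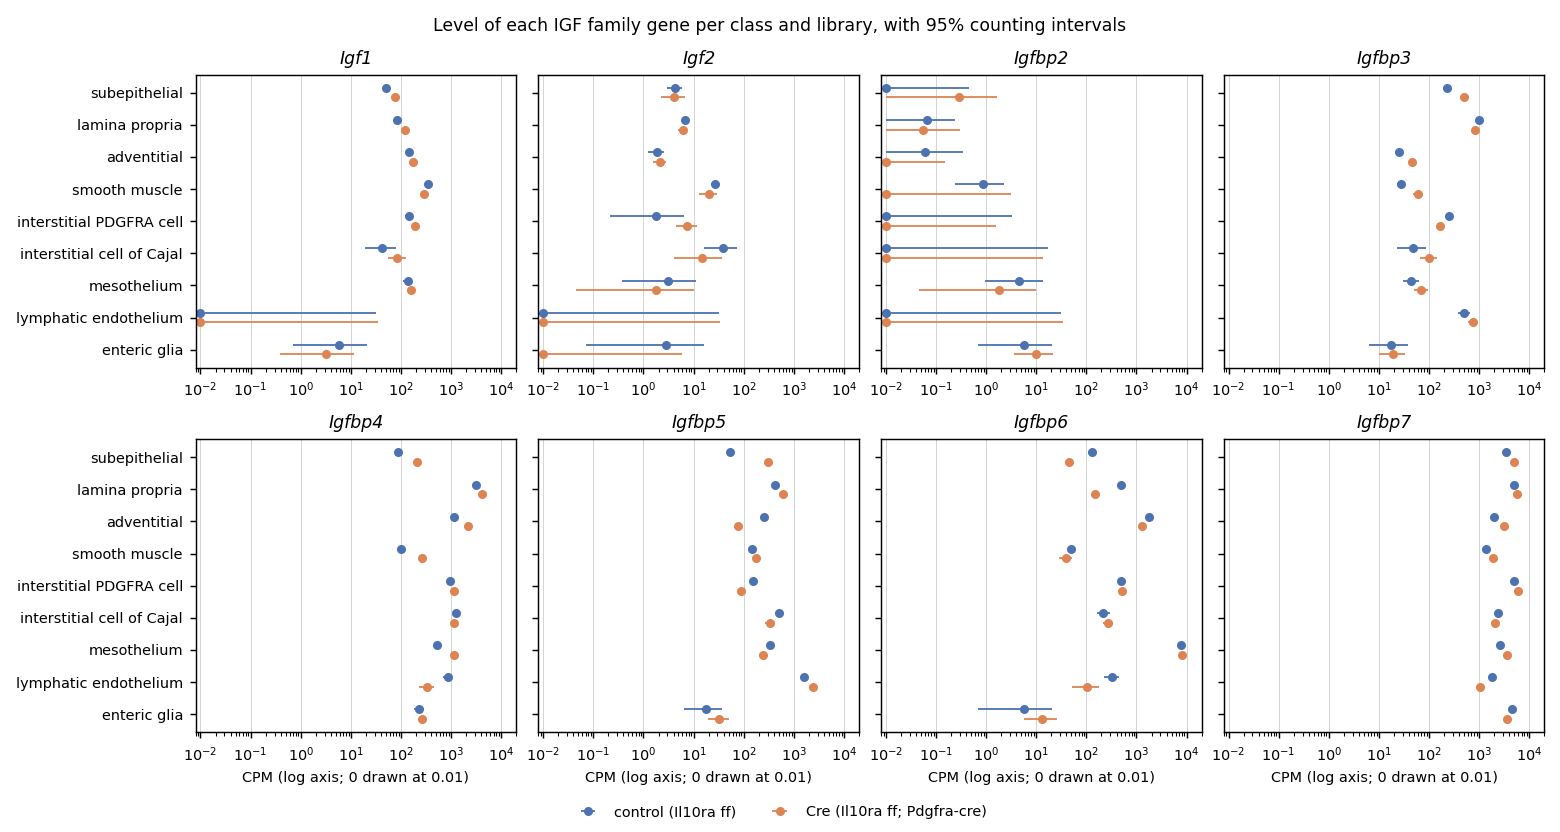
CPM of each of the 8 genes (log axis, 0 drawn at 0.01) in 9 cell classes of the control (blue) and Cre (orange) library; points are summed counts and bars 95% Poisson intervals. Igfbp6 is highest in mesothelium, Igf1 in smooth muscle and Igfbp5 in lymphatic endothelium in both libraries, and the position of Igfbp5 in the subepithelial and adventitial classes is exchanged between libraries.

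Over all fibroblast-like cells, 6 of the 8 genes were measured, that is, averaged at least 10 CPM over the libraries. Igf1 was at least 1.5-fold higher in the Cre library (with 1 CPM added to both levels), Igfbp3 was as much lower, and 4 binding protein genes lay between. Of all 9028 genes measured in these cells 3.85% were as much higher and 3.32% as much lower. The median log2 ratio was 0.16 over the 6 genes and -0.05 over all genes. More of the 6 passed 1.5-fold in subepithelial and adventitial cells, and fewer in lamina propria cells. In subepithelial cells 3 were higher, against 4.9% of all genes, and 1 lower, against 3.38%, with medians of 0.86 over the 6 and 0.04 over all genes. In lamina propria cells 0 were higher, against 5.41%, and 1 lower, against 3.6%, with medians of 0.31 and 0.04. In adventitial cells 3 were higher, against 4.77%, and 1 lower, against 2.54%, with medians of 0.47 and -0.02. These are counts by size in 1 pair of libraries. They show which genes passed 1.5-fold in each class. In subepithelial cells these were Igfbp3, Igfbp4 and Igfbp5 on the higher side and Igfbp6 on the lower. In lamina propria cells it was Igfbp6 alone, on the lower side. In adventitial cells Igfbp3, Igfbp4 and Igfbp7 were above and Igfbp5 below.

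**Figure D2:**
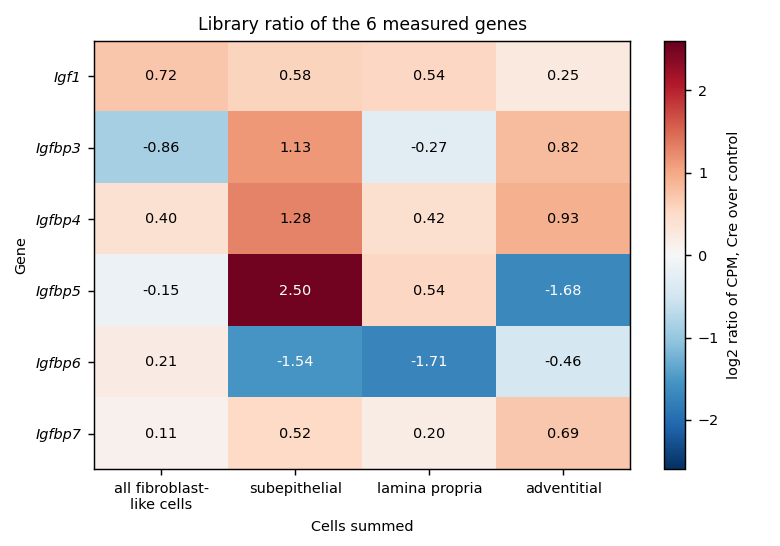
Log2 ratio of CPM, Cre over control with 1 CPM added, for the 6 measured genes (rows) in all fibroblast-like cells and the 3 classes (columns); red is higher and blue lower in the Cre library. Igfbp5 runs from 2.50 in subepithelial to -1.68 in adventitial cells, while Igf1, Igfbp4 and Igfbp7 are above 0 in all 4 columns.

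Of the ligands, Igf1 was the one measured in fibroblasts. Its level in fibroblast-like cells was 98.5 CPM in control and 163 CPM in Cre cells, a 1.65-fold difference (1.60 to 1.71). Subepithelial cells were at 51.2 and 77.1 CPM, lamina propria cells at 82.9 and 121 CPM and adventitial cells at 146 and 173 CPM. The Cre level was thus higher in each class as a whole, 1.51-fold (1.29 to 1.76), 1.46-fold (1.38 to 1.55) and 1.19-fold (1.13 to 1.25). Each of these was smaller than the ratio over all fibroblast-like cells. With 1 CPM added, the subepithelial log2 ratio was 0.582, just under 1.5-fold, so Igf1 was not among the genes counted as higher there. Within the lamina propria class, Igf1 was 0.97-fold (0.68 to 1.34) in cluster 0 and 1.05-fold (0.93 to 1.19) in cluster 6. Cluster 4, with 29 control cells, was at 91.1 and 123 CPM, 1.35-fold (0.85 to 2.29). Cluster 11, with 17 Cre cells, was at 106 and 159 CPM, 1.51-fold (1.003 to 2.18). Weighted alike and without clusters 4 and 11, clusters 0 and 6 gave a log2 ratio of 0.03, against 0.54 for the class. The 4 adventitial clusters gave 0.10, against 0.25 for their class. The unclassed cells, at 106 and 224 CPM, differed 2.12-fold (1.97 to 2.27). Among their clusters, cluster 12, led by Epyc, Ptx3 and Sfrp4 with 179 control and 363 Cre cells, was at 135 and 273 CPM. Within the 11 clusters Igf1 was higher in 7, with the interval above 1 in 5, and lower in 4, with the interval below 1 in 0, and with the clusters weighted alike its log2 ratio was 0.27 instead of 0.72, which is under 1.5-fold. After each cell was thinned to 2000 UMIs, 16.8% of control and 23.4% of Cre fibroblast-like cells had an Igf1 UMI, against 1.49% (0.04 to 8.04) of control enteric glia and 0 of 112 Cre enteric glia, whose upper bound was 3.24%. Median depths of the unthinned cells were 6611 and 7518 UMIs in fibroblast-like cells and 4107 and 5056 in glia.

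The level of Igf1 had the same leading class in both libraries. Smooth muscle cells were highest, at 352 (335 to 370) and 287 (257 to 319) CPM, from 695 and 175 cells. In the control library adventitial cells, interstitial PDGFRA cells at 141 CPM and mesothelium at 135 CPM followed with overlapping intervals, and lamina propria and then subepithelial cells came below them. Lymphatic endothelium had 0 Igf1 UMIs in either library, with upper bounds of 31.7 and 34.2 CPM. Igf2, the ligand gene that is paternally expressed and mostly fetal in mice, was at 4.76 and 3.61 CPM in fibroblast-like cells and so under the 10 CPM minimum. It was found at 26.8 (22.2 to 31.9) and 20.1 (12.9 to 29.96) CPM in smooth muscle. Interstitial cells of Cajal, the pacemaker cells of gut muscle, were at 37.9 (16.4 to 74.7) and 14.8 (4.02 to 37.8) CPM from 8 and 4 UMIs, so neither the 2 libraries nor these 2 cell types could be told apart by their intervals.

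Igfbp2, a binding protein gene best known from liver and brain, was near 0 in this stroma. Fibroblast-like cells held 3 UMIs in control and 4 in Cre cells, or 0.0464 and 0.0668 CPM. Its highest levels were in enteric glia, at 5.77 (0.699 to 20.8) and 9.71 (3.56 to 21.1) CPM from 2 and 6 UMIs, and in mesothelium from 3 and 1. At this depth no order between those types was detectable.

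Igfbp3 encodes the main carrier of IGF in blood and is also made by many mesenchymal cells. In fibroblast-like cells it was at 621 CPM in control and 342 CPM in Cre cells, 1.82-fold lower (1.79 to 1.85). Lamina propria cells were highest, at 1013 (1002 to 1024) and 842 (829 to 855) CPM, 1.20-fold lower (1.18 to 1.23). Among the named classes lymphatic endothelium followed at 508 (386 to 655) and 741 (587 to 922) CPM. Its interval overlapped that of lamina propria cells in the Cre library. Subepithelial cells were at 224 and 491 CPM, 2.19-fold higher (2.05 to 2.34), and adventitial cells at 25.03 and 44.8 CPM, 1.79-fold higher (1.60 to 2.01). The adventitial class, lowest in Igfbp3 of the 3, made up 27.8% of kept control and 38.4% of kept Cre cells. The sort and the clustering can set such shares. Unclassed cells were at 737 and 154 CPM, 4.80-fold lower (4.57 to 5.04). With the 3 classes and the unclassed cells weighted alike, the log2 ratio was -0.38 instead of -0.86, under 1.5-fold, and over the 3 classes without the unclassed cells it was 0.13. Of their control cells 67.5% were in cluster 7, led by Cxcl13, at 1065 and 855 CPM. Of their Cre cells 55.1% were in cluster 9, led by Ptn and Myoc, at 64.1 and 109 CPM.

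Igfbp3 was found in many subepithelial but few adventitial cells. In subepithelial cells the share with a UMI after thinning was 27.0% (24.5 to 29.7) in control and 42.3% (37.7 to 47.1) in Cre cells, and the intervals did not overlap. In adventitial cells 52.1% and 59.0% of all Igfbp3 UMIs came from the 1% of cells richest in it. The share of adventitial cells with a UMI was 2.79% and 3.83% after thinning, with overlapping intervals, against 0 of 67 and 1.79% of glia. With 1 doublet cutoff for both libraries the adventitial levels were 25.03 and 35.9 CPM, a log2 ratio of 0.50, and without the richest 1% of cells the ratio was 0.58, both under 1.5-fold. The ratio stayed at least 1.5-fold higher in 9 of 15 alternatives. Within the 4 adventitial clusters Igfbp3 was higher in cluster 2 (31.8 and 73.9 CPM) and cluster 8 (11.4 and 15.4 CPM) and lower in cluster 1 (27.3 and 13.6 CPM) and cluster 5 (141 and 44.0 CPM). Weighted alike, these clusters gave a log2 ratio of -0.52, the opposite sign of the class value of 0.82.

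The levels of Igfbp4 and Igfbp7 were higher in the Cre library in every one of the 11 clusters, and for each gene the interval of the fold lay above 1 in 10 of them. The exceptions were cluster 0 for Igfbp4, at 1.01-fold (0.97 to 1.06), and cluster 7 for Igfbp7, at 1.01-fold (0.977 to 1.04). The clusters are not replicates, since all come from the same pair of libraries. How many of all genes were higher in all 11 clusters was not counted, so whether this is unusual is not known. Igfbp4, whose protein binds IGF and is cut by pappalysin-1 (PAPP-A), was at 2124 CPM in control and 2806 CPM in Cre fibroblast-like cells, 1.32-fold higher (1.31 to 1.33). In lamina propria cells, where it was highest, the levels were 3132 and 4181 CPM, 1.33-fold higher (1.32 to 1.35). In adventitial cells they were 1161 and 2219 CPM, 1.91-fold higher (1.88 to 1.94). Each of the 4 adventitial clusters was higher: 1456 and 2165 CPM in cluster 1, 1286 and 1773 in cluster 2, 1532 and 2667 in cluster 5, 842 and 1306 in cluster 8. Cluster log2 ratios ran from 0.02 in cluster 0 (3373 and 3420 CPM) to 1.28 in cluster 3. Outside the fibroblasts, smooth muscle was at 100 and 265 CPM, 2.65-fold higher (2.29 to 3.07). Its share of cells with a UMI after thinning was 12.8% and 15.2%, with overlapping intervals. Mesothelium was at 522 and 1136 CPM, 2.18-fold higher (1.91 to 2.49), and interstitial PDGFRA cells at 967 and 1142 CPM, 1.18-fold higher (1.10 to 1.27). Enteric glia were at 228 and 264 CPM, with overlapping intervals. Interstitial cells of Cajal were at 1265 (1117 to 1426) and 1159 (1034 to 1294) CPM, with overlapping intervals. Lymphatic endothelium was lower in the Cre library, at 861 and 333 CPM. The lymphatic cells, 42 and 44 in number, also held 5636 and 491 CPM of the 9 fibroblast markers, of which 0 and 3 were at 0, and the part of those transcripts in the Igfbp4 difference was not tested.

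In subepithelial cells the Igfbp4 ratio rested on few cells. The level was 86.8 (80.5 to 93.5) and 213 (198 to 229) CPM, 2.45-fold higher (2.21 to 2.72). Its intervals overlapped those of the class next above, smooth muscle in the control (91.04 to 110 CPM) and glia in the Cre library (225 to 307 CPM). Of the class's Igfbp4 UMIs, 31.3% in control and 54.2% in Cre cells came from the richest 1% of its cells. Scrublet had set doublet cutoffs of 0.302 in control and 0.433 in Cre cells. With the lower cutoff in both, 15 of the 460 Cre cells left the class, the Cre level was 92.96 CPM and the log2 ratio 0.10 instead of 1.28. The share of cells with a UMI after thinning was 10.4% (8.68 to 12.3) and 12.4% (9.47 to 15.8), with overlapping intervals and no higher than the 20.9% and 22.3% of glia. Under the same cutoff Igfbp4 and Igfbp7 were still higher in 11 of 11 clusters, with log2 ratios from 0.08 to 0.81 and from 0.01 to 0.68.

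Igfbp7, whose product is deposited in the matrix and around vessels, was found in nearly all fibroblasts. A UMI was present after thinning in 96.3% of control and 97.5% of Cre fibroblast-like cells, at 3885 and 4193 CPM, 1.08-fold higher (1.07 to 1.09). The class differences were larger. Adventitial cells were at 1949 and 3151 CPM, 1.62-fold higher (1.60 to 1.64), subepithelial cells at 3384 and 4862 CPM, 1.44-fold higher (1.41 to 1.46), and lamina propria cells at 4930 and 5671 CPM, 1.15-fold higher (1.14 to 1.16). Interstitial PDGFRA cells, named from Kcnn3 and related genes, held the highest level in both libraries, 5041 (4910 to 5176) and 5943 (5845 to 6042) CPM. In the control library their interval overlapped that of lamina propria cells. Igfbp7 was lower in the Cre library in 4 other groups. Unclassed fibroblast-like cells were at 4315 and 3875 CPM, 1.11-fold lower (1.10 to 1.13), although each of their clusters found in both libraries was higher. Lymphatic endothelium was at 1824 and 1037 CPM, 1.76-fold lower (1.39 to 2.23), beside the lower sum of fibroblast markers given above. Enteric glia were at 4556 and 3581 CPM and interstitial cells of Cajal at 2416 and 2074 CPM.

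**Figure D3:**
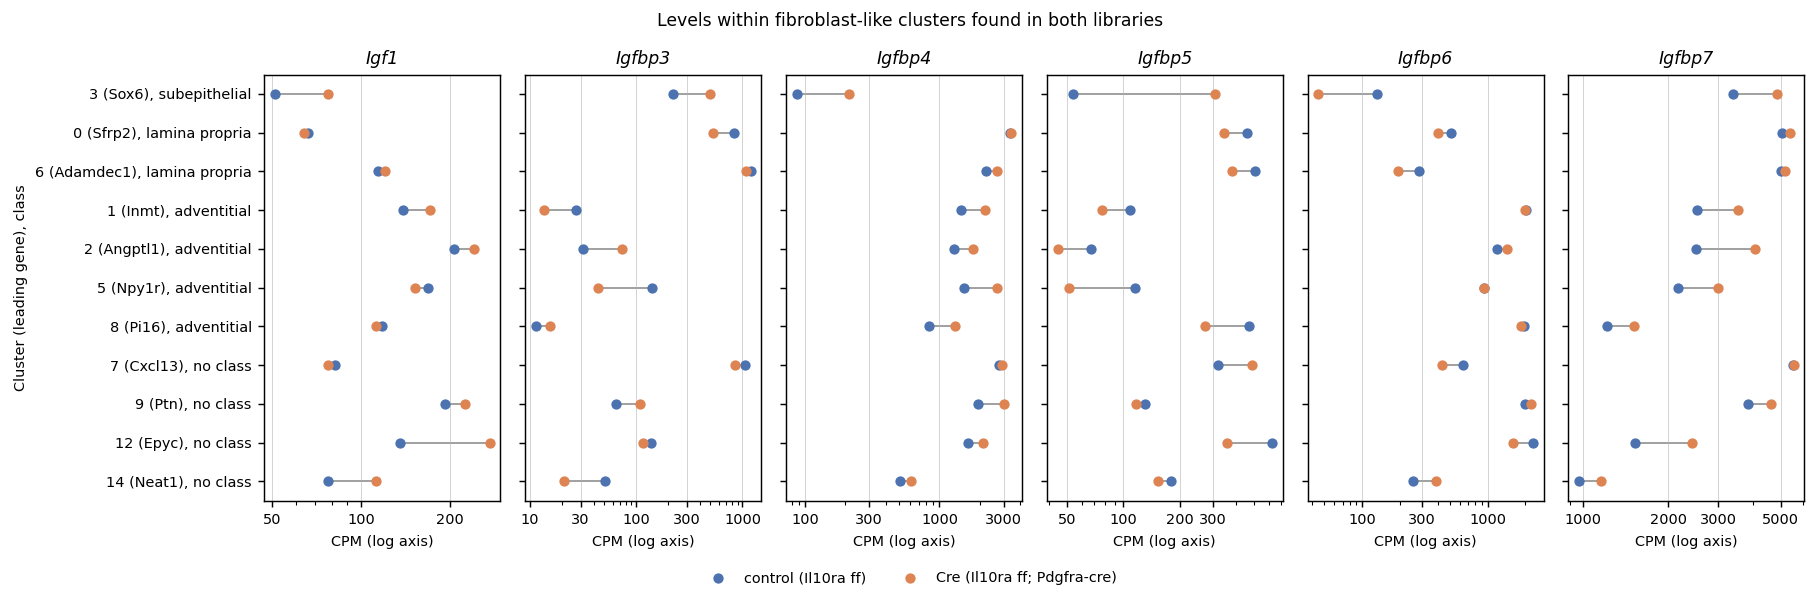
CPM (log axes) of the 6 measured genes in each of the 11 fibroblast-like clusters with at least 50 cells in both libraries, control in blue and Cre in orange, joined by a line; clusters are labelled by number, leading gene and class. For Igfbp4 and Igfbp7 the orange point lies to the right in all 11 clusters, and for Igfbp5 it lies to the left in 9, with clusters 3 and 7 as exceptions.

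Igfbp5, a binding protein gene that is strongly conserved among vertebrates, had class ratios on both sides of 1. Subepithelial cells, which lie under the epithelium and are high in Pdgfra, were at 53.9 CPM in control and 310.0 CPM in Cre cells, 5.75-fold higher (5.14 to 6.44). Adventitial cells were at 255 and 78.6 CPM, 3.24-fold lower (3.07 to 3.42). In the control library adventitial cells therefore stood above subepithelial cells, and in the Cre library below them, with intervals apart in both. Over all fibroblast-like cells the level was 317 and 285 CPM, within 1.5-fold. The unclassed cells were at 337 and 213 CPM.

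After thinning, 3.47% (2.48 to 4.71) of control subepithelial cells had an Igfbp5 UMI, against 13.1% (10.1 to 16.6) of those in the Cre library, and without thinning 6.07% and 20.7%, at median depths of 6525 and 6695 UMIs. The glial shares were 0 of 67 and 1.79%, the former with an upper bound of 5.36%, so the control share lay in the range of glia. In the control 64.4% of the class's Igfbp5 UMIs came from the richest 1% of cells, and in the Cre library 28.0%. Without those cells the levels were 19.4 and 228 CPM. Lymphatic endothelium had the highest Igfbp5 of all classes, 1592 and 2417 CPM. The 8 lymphatic markers summed to 12.3 CPM in control and 11.02 CPM in Cre subepithelial cells, with 1 and 4 of them at 0. When cells were gated by their own marker sums instead of by cluster, the subepithelial log2 ratio of Igfbp5 was 1.25 instead of 2.50.

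Of the 9 clusters in which Igfbp5 was lower, the interval lay below 1 in 7. It was lower in each of the 4 adventitial clusters, at 108 and 76.9 CPM in cluster 1, 67.1 and 44.4 in cluster 2, 116 and 51.1 in cluster 5 and 471 and 275 in cluster 8. Cluster 8, led by Pi16, was the highest of these and held 33.8% of control but 9.41% of Cre adventitial cells. Weighted alike, the clusters gave a log2 ratio of -0.76, against -1.68 for the class. In lamina propria cells the class level was 415 CPM in control and 606 CPM in Cre cells, 1.46-fold higher (1.42 to 1.497). Both lamina propria clusters present in the 2 libraries were lower instead: cluster 0 at 457 and 347 CPM and cluster 6, led by Adamdec1, at 506 and 382 CPM. Cluster 4, which held most Cre cells of the class, was at 705 CPM there, and its 29 control cells were at 607 CPM. Cluster 11, with 779 control and 17 Cre cells, was at 267 and 247 CPM. Cluster 7 was the other cluster with more Igfbp5 in the Cre library, at 322 and 485 CPM.

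Igfbp6, which prefers IGF2 over IGF1, was highest in mesothelium and, among the named fibroblast classes, in adventitial cells. Mesothelium, the lining of the outer gut wall, was at 7748 (7535 to 7965) and 7968 (7735 to 8206) CPM from 63 and 46 cells, with overlapping intervals. Adventitial cells were at 1790 and 1297 CPM, 1.38-fold lower (1.36 to 1.40). Within the adventitial clusters the 2 libraries were closer, at 2037 and 1988 CPM in cluster 1, 1182 and 1436 in cluster 2, 928 and 943 in cluster 5 and 1960 and 1851 in cluster 8. Weighted alike they gave a log2 ratio of 0.03. Unclassed fibroblast-like cells were above the adventitial class in the Cre library, at 1827 CPM, and below it in the control, at 1020 CPM. Of the unclassed clusters, cluster 12 was at 2297 and 1587 CPM and cluster 9 at 1971 and 2200 CPM.

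The other 2 classes held less Igfbp6 in the Cre library. Lamina propria cells were at 488 and 148 CPM, 3.29-fold lower (3.16 to 3.43), and the share with a UMI after thinning was 51.4% in control and 20.6% in Cre cells. Cluster 0 was at 511 and 401 CPM and cluster 6 at 283 and 193 CPM, so both were lower by less than the class, with a log2 ratio of -0.42 weighted alike against -1.71. Cluster 4 was at 116 CPM in the Cre library, and its 29 control cells at 268 CPM. Cluster 11 was at 542 CPM in the control library, and its 17 Cre cells at 428 CPM. Subepithelial cells, a single cluster, were at 132 and 44.7 CPM, 2.94-fold lower (2.48 to 3.51), with 13.3% (11.4 to 15.5) and 8.11% (5.74 to 11.05) of thinned cells positive against 2.99% and 2.68% of glia. Over all fibroblast-like cells Igfbp6 was at 858 and 990.4 CPM, and unclassed cells were at 1020 and 1827 CPM. With the 3 classes and the unclassed cells weighted alike the log2 ratio was -0.05 instead of 0.21, and over the 3 classes without the unclassed cells it was -0.69.

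**Figure D4:**
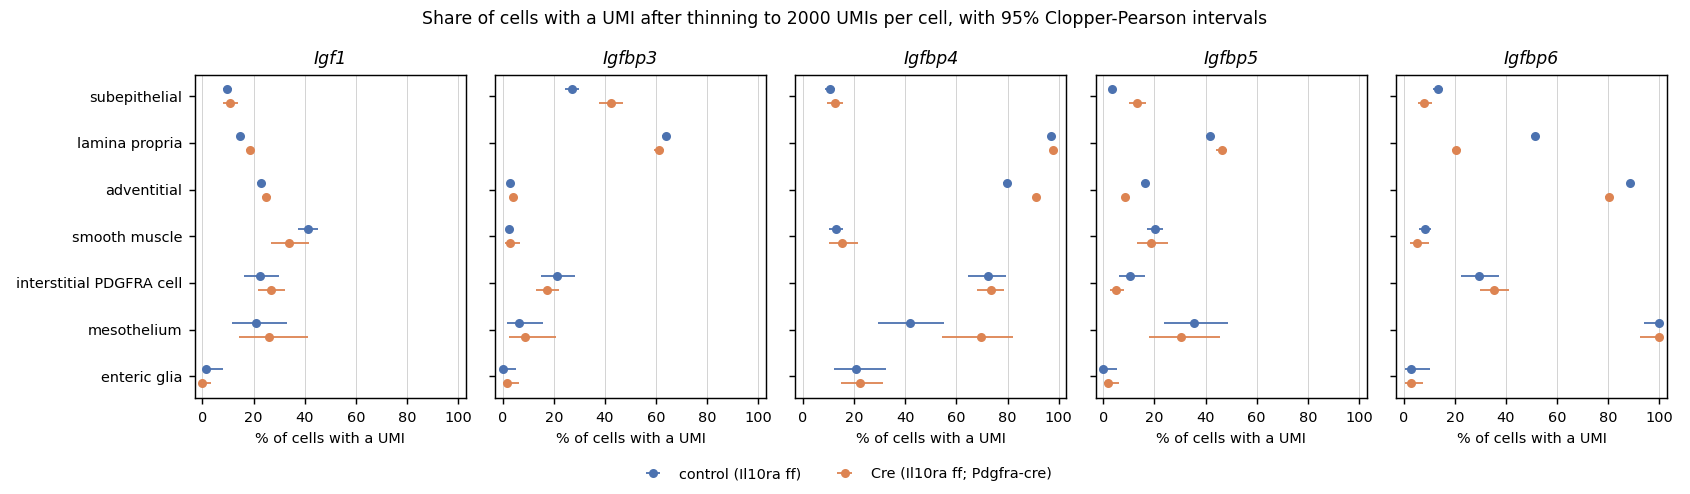
Share of cells (percent) with at least 1 UMI of each gene after thinning every cell to 2000 UMIs, by class, control in blue and Cre in orange, with 95% Clopper-Pearson intervals for counting error. In subepithelial cells the intervals stand apart for Igfbp3 and Igfbp5 (higher in Cre) and Igfbp6 (lower), and overlap for Igf1 and Igfbp4. In lamina propria cells Igfbp6 goes from 51.4% to 20.6%.

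Other measures moved with these differences. In subepithelial cells 12 dissociation stress genes summed to 30958 CPM in control and 21098 CPM in Cre cells, with 7 of 12 at least 1.5-fold lower and 0 higher. In lamina propria cells that sum was 29794 and 25740 CPM with 1 of 12 lower, and in adventitial cells 29058 and 31883 CPM with 2 of 12 higher. The 10 markers of adventitial cells summed to 351 and 620.0 CPM in subepithelial and to 1685 and 3515 CPM in lamina propria cells. Of those measured, 3 of 7 were at least 1.5-fold higher and 1 lower in subepithelial cells, and 5 of 8 were higher and 3 lower in lamina propria cells. Each class's own measured markers differed too. In subepithelial cells 2 of 10 were lower and 0 higher, and in lamina propria cells 5 of 9 were lower and 1 higher. In adventitial cells 5 of 10 were higher and 3 lower. The subepithelial markers had 7 of 8 lower and 0 higher in lamina propria cells. Of the 10 type I interferon genes, 7 were at least 1.5-fold higher and 0 lower in each of the 3 classes, with sums of 288 to 470 CPM in the control and 922 to 1102 CPM in the Cre library. Transcripts of blood cells and other free RNA markers (9 genes) summed to 61.9 and 152 CPM in fibroblast-like cells. The part of these measures in the IGF gene ratios was not tested.

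Most other genes of the pathway were within 1.5-fold between the libraries. Of 51 listed genes for receptors, adaptors, proteases, the growth hormone axis and downstream kinases, 36 were measured in fibroblast-like cells. Of these 1 was at least 1.5-fold higher in the Cre library, 2 were lower and 33 lay between, with a median log2 ratio of 0.03, and the same shares of 3.85% and 3.32% of all genes apply. Igf1r, the receptor of both ligands, was at 129 and 151 CPM, Igf2r, which takes IGF2 up for degradation, at 74.1 and 80.3 CPM, and Insr, the insulin receptor, at 27.9 and 37.5 CPM. Their log2 ratios were 0.23, 0.11 and 0.41. By class, Igf1r was at 55.0 and 96.0 CPM in subepithelial, 171 and 268 CPM in lamina propria and 82.6 and 92.8 CPM in adventitial cells. Log2 ratios of Igf1r were 0.79, 0.64 and 0.17 in that order and of Insr 0.64, 0.74 and 0.47, so both receptors were at least 1.5-fold higher in subepithelial and lamina propria cells. Over all fibroblast-like cells the 4 measured adaptors, the 5 measured growth hormone axis genes and the 12 measured kinases and feedback genes were within 1.5-fold. By class, 5 of 36 measured pathway genes were higher and 4 lower in subepithelial cells, 4 of 34 higher and 2 lower in lamina propria cells, and 1 of 36 higher and 2 lower in adventitial cells, to be read against the shares of all genes given for each class. The adaptor Irs2, named after its values were seen, was among those lower in subepithelial cells, with a log2 ratio of -0.62.

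The 3 pathway genes past 1.5-fold over all fibroblast-like cells act on or resemble the binding proteins. Stc2, an inhibitor of PAPP-A, was at 11.8 and 30.1 CPM. It was among the leading genes of cluster 2, and in adventitial cells it was at 30.3 and 55.0 CPM. Htra1, a secreted serine protease that can cut IGF-binding proteins, was at 609 CPM in control and 325 CPM in Cre cells. It was lower in all 3 classes, at 745 and 464 CPM in subepithelial, 769 and 553 CPM in lamina propria and 244 and 160.0 CPM in adventitial cells. Kazald1, which encodes a protein with an IGF-binding domain, was at 19.4 and 10.4 CPM, and in lamina propria cells at 23.1 and 4.38 CPM. Pappa, the gene of PAPP-A, chosen after its values were seen, was at 120 and 203 CPM in subepithelial and 49.6 and 89.3 CPM in lamina propria cells but at 40.4 and 48.2 CPM over all fibroblast-like cells.

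The CCN genes encode matricellular proteins that share the IGF-binding domain but bind IGF poorly, and they went both ways. Of 6 listed, 4 were measured in fibroblast-like cells, where 2 were at least 1.5-fold higher, against 3.85% of all genes, and 2 lower, against 3.32%. Ccn1 was at 873 and 1314 CPM and Ccn5 at 6.57 and 19.2 CPM, both higher in the Cre library. Ccn2 (connective tissue growth factor) was at 565 and 313 CPM and Ccn3 at 33.3 and 16.4 CPM, both lower. Within classes Ccn1 was less than 1.5-fold apart, with log2 ratios of 0.09 in subepithelial, 0.36 in lamina propria and 0.44 in adventitial cells. Ccn2 was at -0.08, -0.75 and -0.22 in the same order, so it was past 1.5-fold in lamina propria cells alone of the 3. Ccn3 was measured in lamina propria cells, at -2.80, and in adventitial cells, at -0.93, and Ccn5 in adventitial cells, at 0.71.

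**Figure D5:**
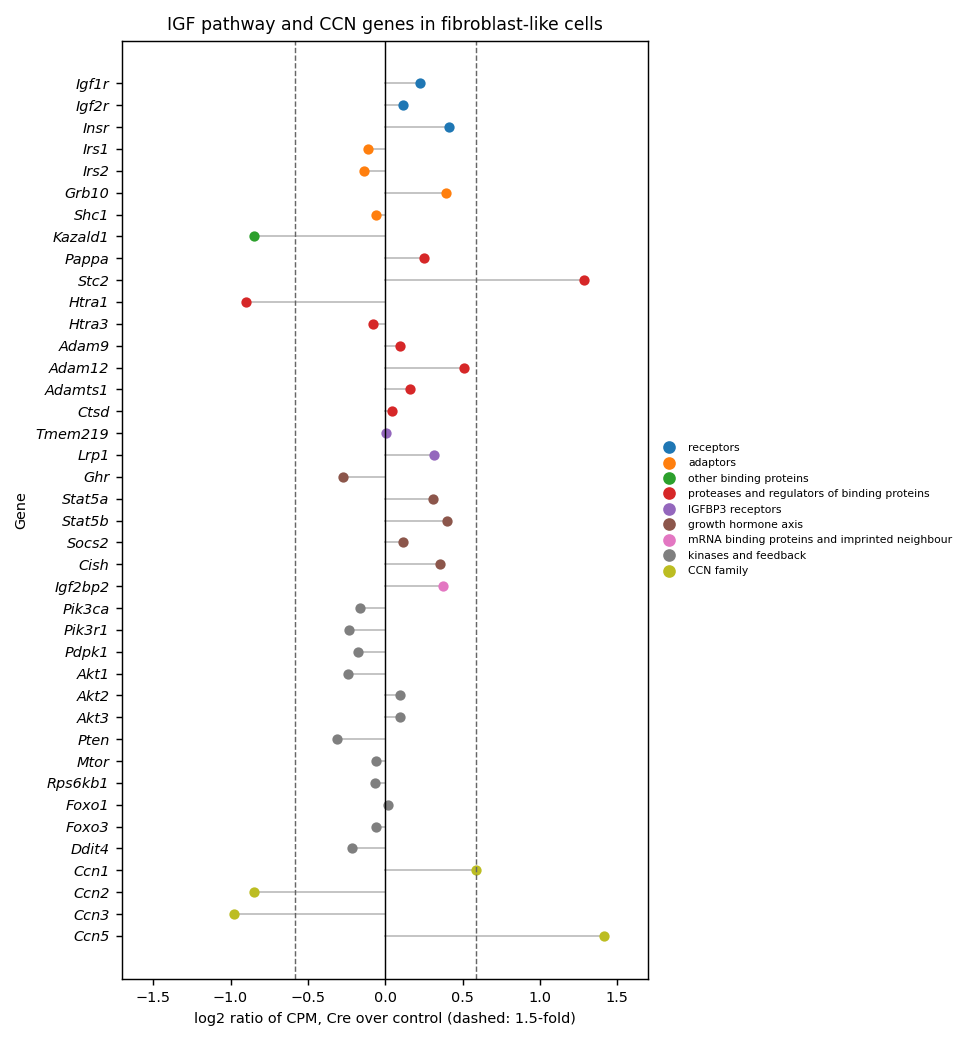
Log2 ratio of CPM in fibroblast-like cells, Cre over control with 1 CPM added, for the 36 measured pathway genes and 4 CCN genes, coloured by role; dashed lines mark 1.5-fold. Stc2, Ccn1 and Ccn5 lie to the right of the lines and Htra1, Kazald1, Ccn2 and Ccn3 to the left, while the receptors, adaptors and kinases lie between.

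The genes most like each IGF gene across cell types were taken from 11702 candidates over 16 sums of 1 class in 1 library, by Pearson's r of log2(CPM + 1). Sums of the same class in the 2 libraries are not independent, and all sums of a library share its depth, so r is a description. Igf1 was most like Zfpm2 (r = 0.94), Isg20 and Gstm2. Igf2 was most like Unc45a (0.92), Speg and Mark1. Igfbp3 was most like Slco2b1 (0.89), Hcar2 and Wnt5b, of which Hcar2 was a marker used to name lamina propria cells. Igfbp4 was most like Gda (0.93), Adh1 and Sulf2, and Igfbp6 like Gprc5a (0.93), Npr1 and Clec11a. Igfbp5 was most like Prrg3 (0.88), Anxa4 and Wnt2b, and Igfbp7 like Cdk14 (0.88), Rcn1 and Lamp2. Igfbp2 never reached 10 CPM in such a sum and was left out.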

How the data were processed

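For each library the authors deposited raw UMI counts, whole numbers with no normalization, for every gene in every barcode kept. Cell Ranger 8.0.1 and GRCm39 are given in the submitters' processing notes. Of 33696 features, 26 had a symbol already listed, and only its first row entered. Per-sample columns left unused numbered 0. The annotation at hand was of GRCm38.p6, so promoter positions are in that build and no gene position is given.

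A barcode was kept if it had 500 genes or more and no more than 10% of its UMIs were mitochondrial. Scrublet (scanpy 1.11.5, expected rate 8%) was run per library and its doublets left out: 330 control barcodes failed and 435 were doublets, against 214 and 94 Cre barcodes. Both libraries were clustered jointly (2000 variable genes, 30 components, 15 neighbours, leidenalg 0.10.2, resolution 1), with no integration. Variable genes and markers excluded the IGF, pathway and CCN genes. Also left out of the variable genes were interferon-induced, antigen presentation, nucleic acid sensor, stress, cell cycle, sex-linked, mitochondrial, ribosomal protein and immunoglobulin genes, among others. Cxcl9, Ifi207 and Ifit1 were among those left out, so they could rank as leading genes but did not shape the clusters. Cluster genes were ranked by fold within the library that held most of its cells, on CPM + 10, among genes found in at least 10% of them. A type other than fibroblast needed 3 markers among the top 30 genes. A fibroblast class was the one with the highest mean log2 fold of its markers, with 3 at 1.5-fold, unless the top 10 held more markers of another class.

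CPM are the summed counts of a class in a library over their total. Log2 ratios took 1 CPM added, and a gene was measured at a mean of at least 10 CPM. Sums carry exact Poisson, ratios exact binomial and shares Clopper-Pearson intervals at 95%, which cover counting error only. No test between genotypes was run. The computation of ratios and intervals was checked on simulated counts with known changes. These were drawn from the profile of the whole control library at the depth of a small class. They were independent Poisson counts, for which such intervals hold by design. The check therefore does not cover UMIs gathered in few cells or differences between animals. Named genes were all 8 members, the 3 receptors, pathway genes at least 1.5-fold apart, the CCN list, and the 3 genes most like each member. The members, lists and naming rules were chosen with earlier results of these data known.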

Additional observations from a re-analysis of the deposited data

Results flagged for a closer look

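In 4 comparisons of classes a gene was higher in the Cre library in one class and lower in the other, and none of these differences between classes was tested, since each class had 1 library per genotype. The log2 ratio of Igfbp3 was 1.13 in subepithelial and -0.27 in lamina propria fibroblasts. It was 0.82 in adventitial against the same -0.27 in lamina propria fibroblasts. For Igfbp5 the log2 ratio was 2.50 in subepithelial and -1.68 in adventitial fibroblasts. It was 0.54 in lamina propria fibroblasts, again against -1.68 in adventitial fibroblasts. Within clusters present in both libraries and weighted alike, Igfbp5 was at 2.50 in the subepithelial cluster and at -0.76 over 4 adventitial clusters. Over 2 lamina propria clusters it was at -0.40, and Igfbp3 was at -0.52 over the adventitial clusters. These means hide clusters that differed: Igfbp3 was higher in adventitial clusters 2 and 8 and lower in clusters 1 and 5. Lamina propria cluster 4, with 29 control cells, and cluster 11, with 17 Cre cells, were left out of the means. Igfbp5 was at 607 and 705 CPM in cluster 4 and at 267 and 247 CPM in cluster 11. Igfbp3 was at 1058 and 759 CPM in cluster 4 and at 1342 and 1597 CPM in cluster 11.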

How the results depend on the processing

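No paired analysis was possible because each genotype had 1 library. Counts in fibroblast-like cells, 1 gene at least 1.5-fold higher and 1 lower, were both 0 when the clusters found in both libraries were weighted alike. The count of higher genes was 0 when each cell was weighted alike, and that of lower genes 0 when the 3 classes and the unclassed cells were weighted alike. Over the 3 classes alone the counts were 1 and 1 but for other genes, Igfbp4 (0.59) and Igfbp6 (-0.69), with Igf1 at 0.40. Within classes, the 6 higher and 3 lower pairs of gene and class ran from 4 to 7 and from 2 to 3 over the alternatives run. The log2 ratio of Igfbp3 in fibroblast-like cells was 0.13 with the 3 classes weighted alike and the unclassed cells left out, and in adventitial cells it was -0.52 with clusters of both libraries weighted alike. The ratio of Igf1 in lamina propria over subepithelial cells of the Cre library was -0.10 with cells gated by their own markers. The cause was not tested. Subepithelial Igfbp4 ran from 0.10 to 1.35 and Igfbp5 from 1.25 to 3.49 over 15 alternatives. The 4 alternatives added after the data were seen were the 1 doublet cutoff, the clusters weighted alike, the unclassed cells weighted like a class, and leaving out the richest 1% of cells. Another scaling of the libraries moved the median of all genes by at most 0.05 (log2). Depth limits Igf2 and Igfbp2, with 308 and 216 and with 3 and 4 UMIs in fibroblast-like cells.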
